A study of Homo sapiens with 9 samples.

Results

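The 9 genes described here handle iron inside the cell: FTL and FTH1, which encode the light and heavy chains of ferritin, TFRC, NCOA4, ACO1, IREB2, HMOX1, PCBP1 and PCBP2. They were taken by symbol from the 18143 genes of the table. FTL was chosen by its share of the counts, which reached 2.34% of a library, so the abundance of FTL is given as a description and was not tested. RNA was sequenced from A549, an established line of human lung adenocarcinoma cells, 48 h after transfection with a scramble siRNA (Scramble) or with either of the siRNAs against REV1 (SiREV1#1 and SiREV1#2). REV1 is a DNA polymerase of translesion synthesis, which copies damaged DNA. Each of the 3 groups had 3 libraries, numbered 1 to 3, and all the cells came from the same line. Nothing in the labels stated that the numbered libraries came from separate cultures, so the p-values measure the spread between these libraries, which may be technical. The comparison addressed here is what either siRNA did to the RNA of the iron handling genes.

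Iron enters most cells as transferrin bound to the receptor encoded by TFRC, and what is not used is stored in ferritin, a shell built from light and heavy chains, of which the heavy chain oxidizes the iron. When iron is short, the iron regulatory proteins encoded by ACO1 and IREB2 bind short RNA hairpins called iron responsive elements. Binding in the 5′ UTR of ferritin mRNAs blocks their translation, and binding in the 3′ UTR of the TFRC mRNA protects it from decay. The RNA level of ferritin is therefore not a measure of ferritin protein, which was not measured here.

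The elements that tie FTL, FTH1 and TFRC to this control are shown because they mark which members share a regulatory sequence. They were searched for in GENCODE transcripts of GRCh38 as a bulged C, 5 bases, the loop CAGTGN and 5 bases that pair with the first 5, with G-U pairs allowed, on the transcribed strand only. Each window is written 5′ to 3′ as DNA, with the 6 loop bases in capitals.
FTL, 5′ UTR, chr19:48965335-48965364, plus strand: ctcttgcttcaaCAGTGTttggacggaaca
FTH1, 5′ UTR, chr11:61967573-61967602, minus strand: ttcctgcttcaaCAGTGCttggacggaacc
TFRC, 3′ UTR, chr3:196050978-196051007, minus strand: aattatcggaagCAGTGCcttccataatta
TFRC, 3′ UTR, chr3:196050574-196050603, minus strand: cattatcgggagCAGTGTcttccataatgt
TFRC, 3′ UTR, chr3:196050509-196050538, minus strand: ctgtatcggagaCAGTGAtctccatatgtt
TFRC, 3′ UTR, chr3:196050462-196050491, minus strand: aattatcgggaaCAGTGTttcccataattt
SLC40A1, 5′ UTR, chr2:189580660-189580689, minus strand: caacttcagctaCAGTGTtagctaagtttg
FTL and FTH1 each held 1 match in the 5′ UTR, and TFRC held 4 in the 3′ UTR, while the other 6 members had none in either UTR. SLC40A1, the gene of the iron exporter ferroportin, is no member but is taken up again among the other iron genes. The same pattern occurred in the 5′ UTR of 0.183% of all coding genes and in the 3′ UTR of 0.671%, and a match describes the letters only, not binding.

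The knockdown was visible in the labelled libraries. REV1 stood at 7.23, 7.9 and 8.44 FPKM in Scramble, at 2.6, 2.92 and 3.36 in SiREV1#1 and at 3.62, 3.36 and 3.18 in SiREV1#2. FPKM are fragments scaled to transcript length and to sequencing depth, so they can be compared between genes. The 8 libraries with counts of their own held 13059082 to 20166451 counts over genes. The third SiREV1#2 library had FPKM values of its own, but its count column repeated that of the second in every gene, so it entered the FPKM comparisons and not the count fits. Replicate 1 stood apart from replicates 2 and 3 in all 3 groups. For this reason each fit was run both across all libraries as they are and with the replicate number as a block, which compares libraries of the same number, and values are given pair by pair. Without the block the edgeR log2 fold change of REV1 was -1.26 after SiREV1#1 (adjusted p = 0.042) and -1.33 after SiREV1#2 (adjusted p = 0.15). The silenced gene itself was thus not called after SiREV1#2 in that fit. With the block the edgeR adjusted p was 0.0016 and 0.0099. The epithelial keratins KRT8 and KRT18 were high and the KEAP1-deficient marker genes of A549, such as AKR1B10 and ALDH3A1, were all expressed, although KRT19 and EPCAM were at a mean of 0.502 and 1.43 FPKM. The summed markers of leukocytes stayed at or below 6.64 FPKM and those of endothelial cells at or below 0.14.

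Ferritin RNA was among the most abundant in every library. FTL (chr19:48965301-48966878, plus strand) reached 20938, 10132 and 9729 FPKM in Scramble, 26130, 13256 and 12861 in SiREV1#1 and 27524, 9983 and 10300 in SiREV1#2. It ranked first among all genes in 8 of the 9 libraries by FPKM and second in the other. By counts it ranked between 1 and 3. In counts it took 1.78%, 0.861% and 0.827% of the Scramble libraries, 2.23%, 1.13% and 1.09% of SiREV1#1, and 2.34% and 0.848% of SiREV1#2. FTH1 (chr11:61959718-61967660, minus strand) followed at 6544, 4668 and 4593 FPKM in Scramble, 8494, 5472 and 5462 in SiREV1#1 and 6568, 3143 and 3131 in SiREV1#2, which placed it between rank 3 and rank 6. Both chains were highest in replicate 1 of every group, so the groups overlapped although replicates 2 and 3 lay close together.

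**Figure D1:**
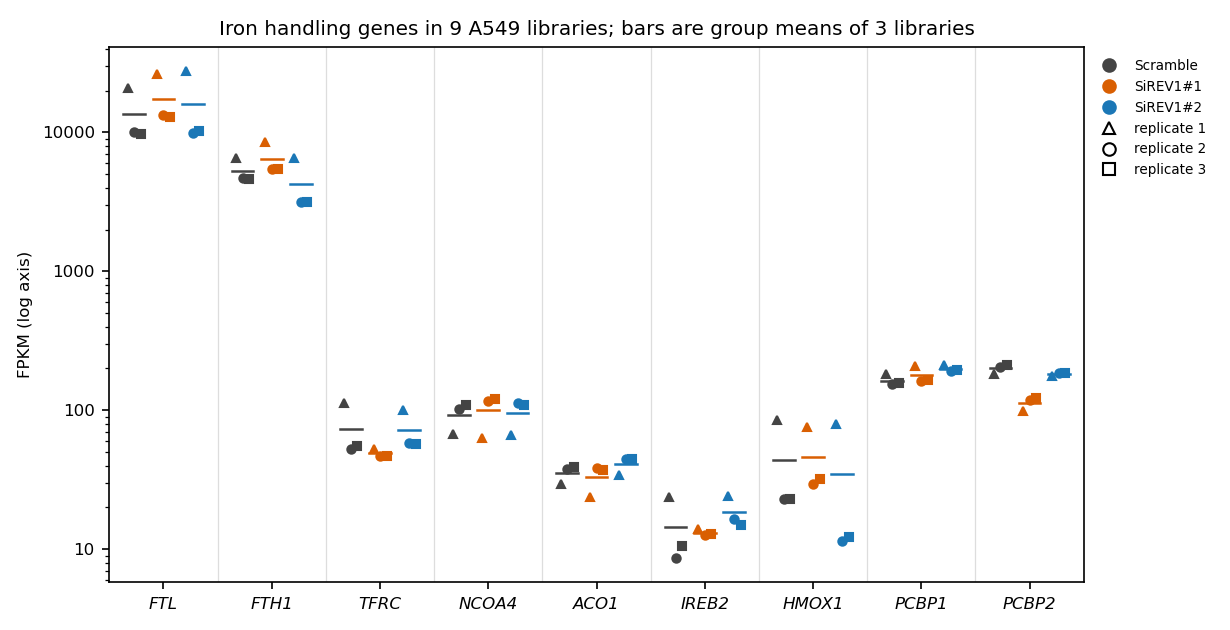
FPKM of the 9 iron handling genes in every library on a log axis, with group by colour, replicate by symbol and the mean of 3 libraries as a bar. FTL and FTH1 lie above all other members in every library, and replicate 1 (triangles) stands apart from replicates 2 and 3 for FTL, HMOX1 and NCOA4.

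Against the Scramble library of the same number, FTL was higher in 3 of 3 SiREV1#1 libraries, by 0.32, 0.39 and 0.40 on the log2(FPKM + 1) scale. The edgeR log2 fold change over all libraries was 0.47 (SE 0.52, adjusted p = 0.93), and 0.45 with the replicate block (SE 0.15, edgeR adjusted p = 0.092), neither past the threshold of 0.05. After SiREV1#2 the 3 pair differences of FTL were 0.39, -0.02 and 0.08, and its fitted change with the block was 0.22 (SE 0.17, edgeR adjusted p = 0.59). The replicate 1 pair of FTL thus differed most after SiREV1#2.

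The pair differences of FTH1 were 0.38, 0.23 and 0.25 after SiREV1#1, and 0.01, -0.57 and -0.55 after SiREV1#2. The edgeR fold changes with the block were 0.36 (SE 0.16, adjusted p = 0.18) and -0.27 (SE 0.19, adjusted p = 0.51). Set against each other directly, SiREV1#1 exceeded SiREV1#2 in 3 of 3 pairs by 0.37, 0.80 and 0.80, and the difference came to 0.63 with the block (SE 0.19, edgeR adjusted p = 0.055) and 0.47 without it (SE 0.40, edgeR adjusted p = 0.77).

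The FTL to FTH1 ratio of FPKM was 3.2, 2.17 and 2.12 in Scramble, with a mean of 2.5 ± 0.61 (SD, n = 3). It was 3.08, 2.42 and 2.36 after SiREV1#1, a mean of 2.62 ± 0.398 (SD, n = 3), and 4.19, 3.18 and 3.29 after SiREV1#2, a mean of 3.55 ± 0.556 (SD, n = 3). In each numbered set SiREV1#2 had the highest ratio, by a margin larger than the gap between replicates 2 and 3 of any group. Its lowest value still lay just below the highest of Scramble, and no exact permutation test of 3 libraries against 3 can go below 0.10, so none is given. Counts gave lower ratios, of 1.48 to 2.24 in Scramble and 1.65 to 2.15 after SiREV1#1, with 2.93 and 2.22 in the 2 SiREV1#2 libraries that had counts.

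**Figure D2:**
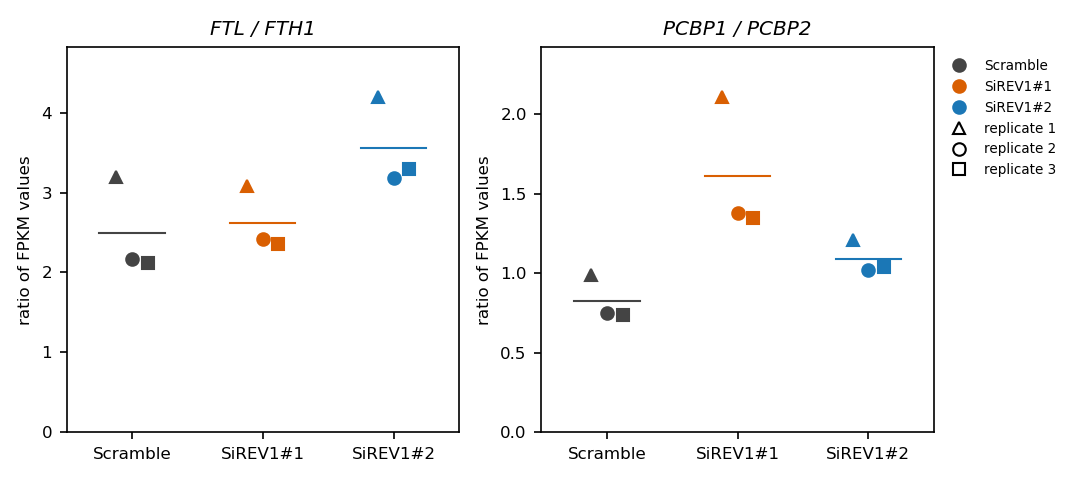
Ratio of FTL to FTH1 and of PCBP1 to PCBP2 in FPKM for each library, with the mean of 3 libraries as a bar and both axes starting at 0. The FTL to FTH1 ratio is highest after SiREV1#2 within every replicate number, and the PCBP1 to PCBP2 ratio of the SiREV1#1 libraries lies above 1.3 throughout.

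Part of the ferritin sequence is shared. Of the 50-base words of FTL transcripts, 18.3% also occurred in other annotated genes, mainly the pseudogene FTLP3, and for FTH1 19.9% did, over 15 other genes such as FTH1P10. These pseudogenes were not listed in the files, and how reads shared with them were counted is not given in the sources used here. FTH1 also overlaps BEST1 on the opposite strand.

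TFRC (chr3:196027183-196082189, minus strand), the uptake receptor, was lowest after SiREV1#1. It measured 111.9, 52.7 and 55.4 FPKM in Scramble, 52.8, 47.2 and 47.1 after SiREV1#1, and 99.7, 58.0 and 57.1 after SiREV1#2. SiREV1#1 was below Scramble in 3 of 3 pairs, by 1.07 in replicate 1 and by 0.16 and 0.23 in replicates 2 and 3 on the log2(FPKM + 1) scale, although its highest value lay just above the lowest of Scramble. The edgeR change was -0.49 (SE 0.36, adjusted p = 0.81), and -0.41 with the block (SE 0.17, adjusted p = 0.15). In FPKM all 3 SiREV1#1 libraries lay below all 3 SiREV1#2 libraries. In CPM, counts scaled to library size with the TMM scaling of the fits, replicate 1 of SiREV1#1 stood at 302. That was above replicate 2 of SiREV1#2 (291.8) and replicates 2 and 3 of Scramble (261.7 and 276.7). How far TFRC overlapped between the groups thus depended on the scaling. The direct difference of -0.47 with the block (SE 0.19) had an edgeR adjusted p of 0.14. After SiREV1#2 the pair differences from Scramble, -0.16, 0.14 and 0.04, had no common direction. Relative to FTH1, TFRC amounted to 0.622% to 0.863% after SiREV1#1 against 1.13% to 1.71% in Scramble and 1.52% to 1.85% after SiREV1#2.

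NCOA4 (chr10:46005088-46030714, minus strand) is the receptor that carries ferritin to the lysosome, where its iron is released. It measured 67.5, 101.8 and 109.8 FPKM in Scramble, 63.6, 115.7 and 120 after SiREV1#1, and 66.8, 112.2 and 108.4 after SiREV1#2. The 3 groups overlapped fully and differed less than replicate 1 differed from replicates 2 and 3, with edgeR changes of 0.16 (SE 0.31, adjusted p = 0.99) after SiREV1#1 and -0.03 (SE 0.35, adjusted p = 1) after SiREV1#2. Opposite to FTL, NCOA4 was lowest in replicate 1 of each group.

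Of the iron regulatory proteins, ACO1 encodes IRP1, which doubles as cytosolic aconitase, and IREB2 encodes IRP2, whose protein is degraded when iron is plentiful. ACO1 (chr9:32384603-32454769, plus strand) measured 29.4, 38.1 and 39 FPKM in Scramble, 23.9, 38.4 and 37.3 after SiREV1#1 and 34.2, 44.8 and 44.6 after SiREV1#2. It was above Scramble in 3 of 3 SiREV1#2 pairs by 0.19 to 0.23 on the log2(FPKM + 1) scale, with an edgeR change of 0.26 with the block (SE 0.14, adjusted p = 0.38). IREB2 (chr15:78437431-78501456, plus strand) measured 23.9, 8.63 and 10.5 FPKM in Scramble, 14.0, 12.7 and 12.8 after SiREV1#1 and 24.0, 16.5 and 15.0 after SiREV1#2. After SiREV1#1 its pairs went both ways, at -0.73 in replicate 1 and 0.51 and 0.26 in the others. After SiREV1#2 they were 0.00, 0.86 and 0.48, with an edgeR change of 0.54 (SE 0.43, adjusted p = 1) and of 0.52 with the block (SE 0.25, adjusted p = 0.32). ACO1 exceeded IREB2 in every library, from 1.23 times in the first Scramble library to 4.41 times in the second.

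HMOX1 (chr22:35380361-35394214, plus strand) encodes heme oxygenase 1, which opens the heme ring and frees its iron. Its transcription is driven by NRF2, which is active in A549 because KEAP1 is mutated, and held down by BACH1. It measured 85.3, 23.01 and 22.9 FPKM in Scramble, 76.3, 29.6 and 32.2 after SiREV1#1 and 80.2, 11.5 and 12.3 after SiREV1#2. The replicate 1 libraries lay within 76.3 to 85.3 whatever the siRNA, whereas replicates 2 and 3 separated into 3 levels. The pair differences from Scramble on the log2(FPKM + 1) scale were -0.16, 0.35 and 0.48 after SiREV1#1 and -0.09, -0.94 and -0.84 after SiREV1#2. In TMM-scaled CPM, replicate 1 stood at 131 in Scramble, 134.4 after SiREV1#1 and 128.4 after SiREV1#2. The sign of the replicate 1 difference after SiREV1#1 thus depended on the scaling. Over all libraries the edgeR change after SiREV1#2 was 0.12 (SE 0.94, adjusted p = 1) and turned to -0.41 with the block (SE 0.27, adjusted p = 0.50). The siRNAs differed by 0.73 with the block (SE 0.28, edgeR adjusted p = 0.11) and by 0.08 without it (SE 0.94, edgeR adjusted p = 0.99).

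PCBP1 and PCBP2 encode RNA-binding proteins that also deliver iron to ferritin. PCBP2 (chr12:53452102-53481162, plus strand) was the member with the clearest difference. It measured 183.0, 205.0 and 211.7 FPKM in Scramble, 98.5, 118.5 and 122.5 after SiREV1#1, and 175.8, 186.1 and 185.8 after SiREV1#2. All SiREV1#1 libraries lay far below all others, in replicate 1 as in replicates 2 and 3. The log2 fold change after SiREV1#1 was -0.75 in both fits, with an SE of 0.15 and an edgeR adjusted p of 0.14 over all libraries as they are, and an SE of 0.12 and an edgeR adjusted p of 0.0090 with the replicate block. With the block it thus fell after SiREV1#1, and it also fell against SiREV1#2, by 0.67 (SE 0.14, edgeR adjusted p = 0.017; without the block by 0.64, SE 0.17, adjusted p = 0.16). After SiREV1#2 its change from Scramble was -0.07 with the block (SE 0.14, edgeR adjusted p = 0.85).

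PCBP1 (chr2:70087454-70089203, plus strand), the intronless relative of PCBP2, did not accompany it. It measured 181.4, 153.7 and 156.0 FPKM in Scramble, 207.3, 163.2 and 165.1 after SiREV1#1, and 212.5, 190.3 and 193.5 after SiREV1#2. The SiREV1#2 libraries lay above all Scramble libraries, with an edgeR change of 0.33 (SE 0.22, adjusted p = 1) and of 0.28 with the block (SE 0.15, adjusted p = 0.40). The PCBP1 to PCBP2 ratio was 0.991, 0.75 and 0.737 in Scramble. With SiREV1#1 it reached 2.1, 1.38 and 1.35, and with SiREV1#2 it reached 1.21, 1.02 and 1.04. PCBP1 thus exceeded PCBP2 in every library of either siRNA and in none of Scramble.

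The 3′ UTR of PCBP2 holds a 7-base match to the seed of the SiREV1#1 guide, and its window is shown because PCBP2 was the member called after this siRNA with the block. The siRNA strands listed in the methods were taken to read as the REV1 transcript does, so the guide was taken as their complement. The word searched in transcripts was CAGGAAT for SiREV1#1 and GGACGAC for SiREV1#2. The window reads 5′ to 3′, with the matching word in capitals.
PCBP2, 3′ UTR, chr12:53479749-53479777, plus strand: ttctgtaatgtCAGGAATttttcaaaaaa
In the longest annotated 3′ UTR of each gene, CAGGAAT occurred once each in TFRC, IREB2, ACO1 and PCBP2, 4 of the 9 members, against 13.7% of all genes with a 3′ UTR, with no allowance for UTR length. Of these 4, PCBP2 passed the test with the block after SiREV1#1 and the other 3 did not. GGACGAC occurred in 0 of the 9, against 1.18% of all genes. Whether either siRNA acted through such words was not tested. Of the 50-base words of PCBP2, 13.7% occurred in other genes, mainly AC023509.1, and it overlaps MAP3K12 on the opposite strand.

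Across the 9 members, no gene passed an adjusted p of 0.05 in edgeR's test without a block, in any of the 3 comparisons. At an unadjusted p under 0.05 the counts were 1 for SiREV1#1 against Scramble, 0 for SiREV1#2 against Scramble and 1 for SiREV1#1 against SiREV1#2, beside 9.75%, 5.48% and 12.4% of all genes. Of all 14205 genes tested, 0.296%, 0% and 0.676% were called in the same comparisons. With the replicate block 1, 0 and 1 members were called, PCBP2 in both cases, against 12.3%, 1.91% and 17.6% of all genes, so the members were not called more often than genes at large. Other tools gave the same number over all libraries, 1, 0 and 1 members by DESeq2 and by limma on log2(FPKM + 1). The share of all genes called by these tools is not given here. The median log2 fold change of the members with the block was 0.15, 0.09 and -0.08, beside 0.00, 0.01 and 0.00 over all genes. The median of the absolute changes was 0.32, 0.26 and 0.44, beside 0.27, 0.23 and 0.35.

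**Figure D3:**
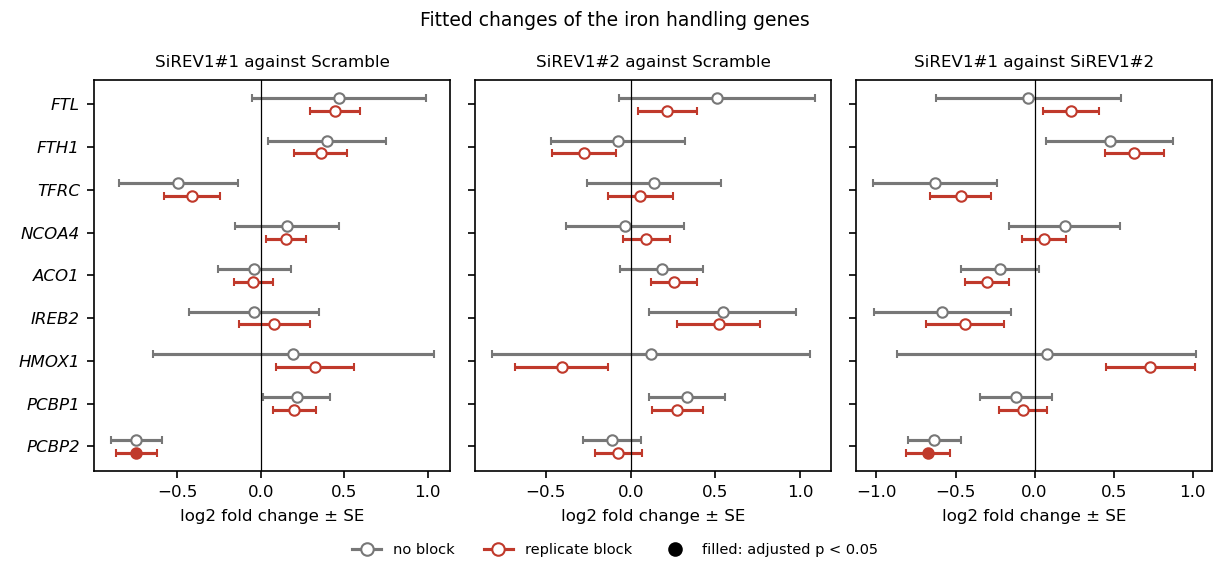
Fitted log2 fold change with its standard error for each member and comparison, from edgeR without a block (grey) and with the replicate block (red), where filled points passed an adjusted p of 0.05. PCBP2 has the 2 filled points, both with the block, and the standard errors of FTL and HMOX1 shrink most between the fits.

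Counting libraries in place of fitting gave a like picture. The FPKM of SiREV1#1 and Scramble did not overlap for 1 member (PCBP2), against 20.1% of the 11429 genes with a mean above 1 FPKM. SiREV1#2 and Scramble did not overlap for 1 member (PCBP1), against 16.1%. The siRNAs did not overlap for 3 (IREB2, PCBP2 and TFRC), against 24% of genes, although for TFRC they did in TMM-scaled CPM. All 3 same-numbered pairs went one way for 5, 5 and 6 members in the 3 comparisons, against 55.1%, 55.6% and 59.7% of genes.

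In replicates 2 and 3 taken alone, the libraries of each group were nearly identical and many more calls were made. There 7 members were called after SiREV1#1, 6 after SiREV1#2 and 8 between the siRNAs, beside 50.2%, 49.3% and 63.7% of all 13845 genes tested. In this fit the SiREV1#2 group held the counts of replicate 2 and counts of replicate 3 estimated from its FPKM. The estimate used the ratio of counts to FPKM in replicate 2, and the spread between replicates 2 and 3 may be technical only. HMOX1 had an edgeR change of 0.45 after SiREV1#1 (SE 0.07, adjusted p = 0.00013) and of -0.95 after SiREV1#2 (SE 0.08, adjusted p = 5.1e-07). FTH1 had 0.26 (SE 0.04, edgeR adjusted p = 0.00026) and -0.56 (SE 0.04, edgeR adjusted p = 3.4e-07). FTL had 0.41 after SiREV1#1 (SE 0.05, edgeR adjusted p = 8.9e-06) and 0.03 after SiREV1#2 (SE 0.05, edgeR adjusted p = 0.61). IREB2 had 0.41 (SE 0.08, edgeR adjusted p = 0.0012) and 0.72 (SE 0.08, edgeR adjusted p = 1.2e-05), and PCBP2 -0.77 (SE 0.05, edgeR adjusted p = 4.2e-08) and -0.16 (SE 0.05, edgeR adjusted p = 0.012). The direct differences between SiREV1#1 and SiREV1#2 for HMOX1 and FTH1 were 1.40 and 0.82 (SE 0.07 and 0.04, edgeR adjusted p = 4.2e-09 and 4.0e-09). In replicate 1 the same differences between SiREV1#1 and SiREV1#2 were -0.07 and 0.37 on the log2(FPKM + 1) scale, in 1 library each and untested. In TMM-scaled CPM, HMOX1 in replicate 1 stood at 134.4 after SiREV1#1 and 128.4 after SiREV1#2. The sign of its small replicate 1 difference thus depended on the scaling.

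The split between replicate 1 and the others was itself wide among the members and is given as a description. On the log2(FPKM + 1) scale replicate 1 exceeded the mean of replicates 2 and 3 for HMOX1 by 1.85 in Scramble, 1.28 in SiREV1#1 and 2.65 in SiREV1#2, and for FTL by 1.08, 1.00 and 1.44. FTH1 exceeded it by 0.50, 0.64 and 1.07. NCOA4 lay below it in each group, by 0.64, 0.88 and 0.71 (differences of -0.64, -0.88 and -0.71), and ACO1 at -0.38, -0.64 and -0.38. FTL and HMOX1 passed 2-fold upwards in all 3 groups, as did 3.7% of the 11429 genes, and no member passed it downwards, as 6.5% of genes did. FTL in SiREV1#1 stood at 2.00-fold, at the threshold, while TFRC (2.05-fold) and IREB2 (2.37-fold) passed it in Scramble and not elsewhere, and FTH1 (2.09-fold) in SiREV1#2 and not elsewhere. In SiREV1#1 TFRC stood at 1.12-fold and IREB2 at 1.09-fold, and in SiREV1#2 TFRC stood at 1.72-fold. PCBP1 and PCBP2 moved least, within 0.34 in either direction. What distinguished replicate 1 is not stated in the labels.

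**Figure D4:**
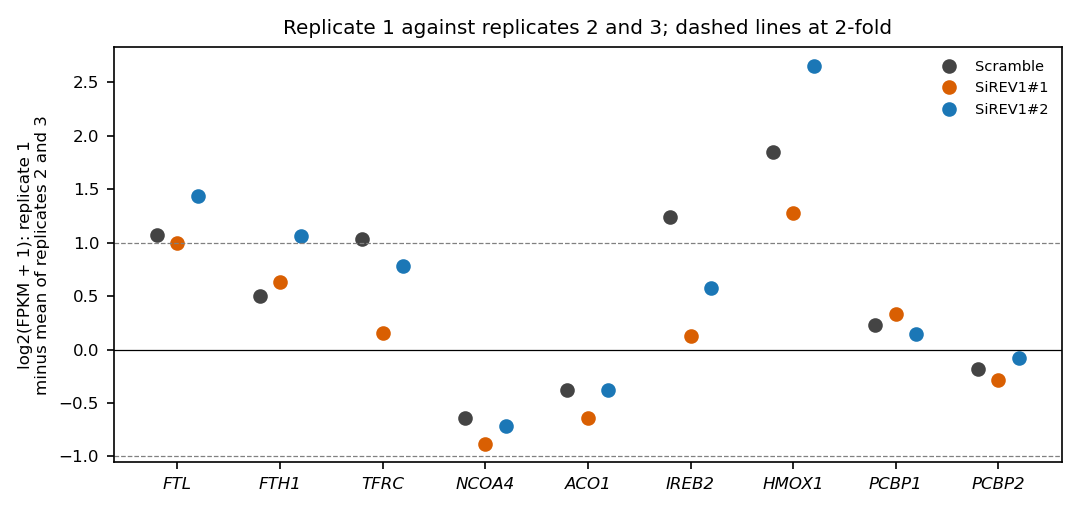
Difference between replicate 1 and the mean of replicates 2 and 3 on the log2(FPKM + 1) scale for each member, 1 point per group, with dashed lines at 2-fold. HMOX1 and FTL lie at or above the upper line in all 3 groups, while NCOA4 and ACO1 lie below 0 in each.

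Likeness of pattern was measured across the same 9 libraries, replicate 1 included. Among the 6142 genes with a mean of at least 10 FPKM, the closest to FTL were SIRPA, SCNN1A and SEMA4B (Pearson r of log2(FPKM + 1) 0.992, 0.991 and 0.989). The closest to FTH1 were PRKCSH, CAPN1 and NUCB1 (0.994, 0.993 and 0.991). For TFRC they were DHX9, VPS35 and TSR1 (0.981, 0.978 and 0.976), and for HMOX1 SOD1, ALDH7A1 and SNRNP25 (0.996, 0.994 and 0.991). Such likeness was common, since 376 genes had an r above 0.9 with FTL, 299 with FTH1, 101 with TFRC and 379 with HMOX1. Among the members FTL followed HMOX1 at 0.926 and FTH1 at 0.844 and ran against NCOA4 at -0.909, all over the same libraries and with the same split.

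Of 74 further iron genes listed in the files, 68 were tested. FDX1, a mitochondrial ferredoxin that passes electrons for iron-sulfur cluster and steroid synthesis, was the one called by edgeR without a block. DESeq2 without a block called 4, 0 and 4 of the 68 in the 3 comparisons, and its share of all genes is not given here. FDX1 measured 9.21, 9.51 and 9.1 FPKM in Scramble, 2.67, 2.97 and 3 after SiREV1#1 and 7.04, 8.13 and 7.95 after SiREV1#2. FDX1 thus lay about as low in replicate 1 as in replicates 2 and 3. It fell by 1.61 after SiREV1#1 (SE 0.16, edgeR adjusted p = 0.018) and by 1.35 against SiREV1#2 (SE 0.17, edgeR adjusted p = 0.028), while its change after SiREV1#2 was -0.26 (SE 0.18). With 1 library left out the change after SiREV1#1 (FDX1, SiREV1#1 against Scramble) stayed between -1.62 and -1.59, but its call was lost without Scramble replicate 1 (edgeR adjusted p = 0.062), Scramble replicate 2 or 3 (0.14 each) and SiREV1#1 replicate 2 or 3 (0.20 each). Against SiREV1#2 (FDX1, SiREV1#1 against SiREV1#2) it stayed between -1.44 and -1.26 and was called without SiREV1#1 replicate 1 only.

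With the block 9 of the 68 were called after SiREV1#1, 4 higher and 5 lower. These shares are close to the 5.32% and 6.96% of all genes. Of these genes FDX1 alone was also called without the block. The genes outside the naming rule are named after their values were seen. With the block both export genes tested rose, SLC40A1 by 1.31 (SE 0.19, edgeR adjusted p = 0.0058) and CP, which encodes the ferroxidase ceruloplasmin, by 0.66 (SE 0.13, edgeR adjusted p = 0.016). Without the block SLC40A1 changed by 1.23 (SE 0.42, edgeR adjusted p = 0.36) and CP by 0.54 (SE 1.2, edgeR adjusted p = 0.99). CP measured 81, 9.54 and 11.5 FPKM in Scramble and 100.25, 16.02 and 18.25 after SiREV1#1. SLC40A1 carries the 5′ UTR element shown above. It measured 16.1, 7.85 and 8.66 FPKM in Scramble, 26.5, 22.1 and 23.1 after SiREV1#1 and 27.3, 10.6 and 11.1 after SiREV1#2. Replicate 1 of SiREV1#2 was as high as the SiREV1#1 libraries. Among uptake genes SLC39A14, a zinc and iron transporter, fell by 0.79 (SE 0.19, edgeR adjusted p = 0.034), from 42.1, 48.8 and 49.5 FPKM to 15.3, 32.3 and 33, and STEAP2, a metalloreductase, rose by 0.47. In heme handling CPOX, an enzyme of heme synthesis, fell by 1.21 (SE 0.15, edgeR adjusted p = 0.0034) and the heme exporter FLVCR1 by 0.86 (SE 0.13, edgeR adjusted p = 0.0065). Without the block the edgeR adjusted p was 0.75 for CPOX and 0.17 for FLVCR1. Of 23 genes of mitochondrial iron and iron-sulfur clusters CISD1 rose by 0.45, and ABCB10 and FDX1 fell by 1.13 and 1.61. None of the 9 genes of cytosolic iron-sulfur cluster assembly and none of the 7 control genes was called.

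**Figure D5:**
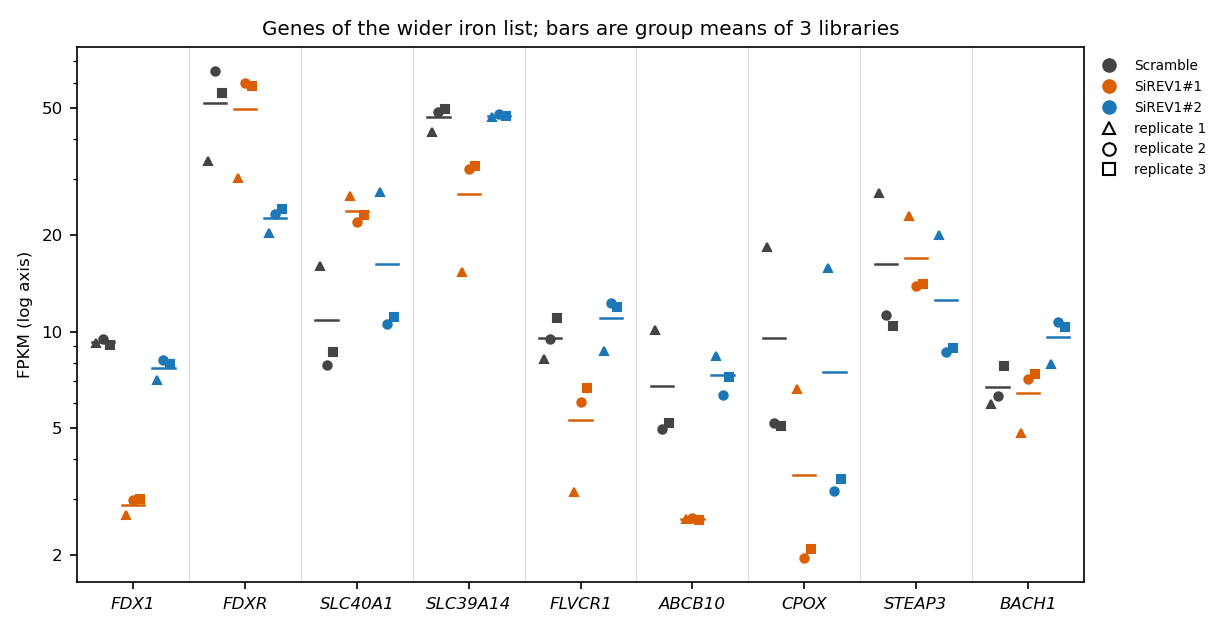
FPKM of 9 further iron genes in every library on a log axis, drawn as for the members. FDX1 is at 2.67 to 3 FPKM in the SiREV1#1 libraries and above 7 in all others, and FDXR is lowest in the SiREV1#2 libraries.

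After SiREV1#2, 1 of the 68 was called with the block, against 1.91% of all genes. FDXR, the reductase that supplies FDX1 with electrons, fell by 1.06 (SE 0.20, edgeR adjusted p = 0.046), and by 1.23 without the block (SE 0.37, edgeR adjusted p = 0.60). It measured 34.2, 65.2 and 55.7 FPKM in Scramble, 30.3, 60.1 and 58.6 after SiREV1#1 and 20.4, 23.3 and 24.3 after SiREV1#2. The FDX1 values of SiREV1#2 also lay below all Scramble libraries, as 9.52% of the 11429 genes did. The partners FDX1 and FDXR were thus each lowest after a different siRNA. Both differed between the siRNAs in the direct comparison with the block, by -1.35 and 1.05 (SE 0.15 and 0.20, edgeR adjusted p = 0.0020 and 0.013). In that comparison 11 of the 68 were called, 5 higher and 6 lower after SiREV1#1, against 8.75% and 8.87% of all genes. The regulator BACH1 was among them at -0.60 (SE 0.15, edgeR adjusted p = 0.029). It measured 5.96, 6.31 and 7.81 FPKM in Scramble, 4.81, 7.14 and 7.38 after SiREV1#1 and 7.9, 10.7 and 10.3 after SiREV1#2. STEAP3, the reductase of the transferrin cycle, stood at 0.58 (SE 0.16, edgeR adjusted p = 0.045).

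The following genes fixed for naming were not called in any comparison of either fit. SLC11A2, the endosomal iron importer, held 13.4 to 17 FPKM in all libraries. NFE2L2, which encodes NRF2, ranged from 31.8 to 55.8 FPKM in replicate 1 and from 116.3 to 146.7 in replicates 2 and 3. FBXL5, the iron-sensing part of the ligase that degrades IRP2, ranged from 7.93 to 9.71 in replicate 1 and from 33.7 to 52.1 in the others. EPAS1, the hypoxia-inducible factor HIF-2α, ranged from 55 to 160.4 and from 230.2 to 307.9 FPKM. Of 65 further iron genes with a mean above 1 FPKM, FBXL5 and NFE2L2 were the 2 that passed 2-fold downwards in replicate 1 of all 3 groups. Among all genes 6.5% did so. Upwards 8 of the 65 passed it, against 3.7% of all genes. BLVRB, a biliverdin reductase, held 346 to 536.9 FPKM, FECH, which inserts iron into heme, 13.3 to 30.04, ISCU, the iron-sulfur scaffold, 28.1 to 46.1, and SLC25A37, a mitochondrial iron importer, 7.45 to 12.7.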

How the data were processed

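The authors deposited, for each of the 9 libraries, a table of FPKM and expected counts per gene. StringTie 1.3.3b and the genome build hg38 are named in the submitters' processing notes, and the aligner and annotation are not given in the sources used here. The deposited counts are estimated counts, of which 42.6% were not whole numbers, and they were rounded before the fits. The count column of the third SiREV1#2 library matched that of the second in 100% of genes and was left out, while 3.07% of nonzero FPKM values matched. Extraction was described in the labels for ground tissue, although the samples are cultured cells.

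edgeR 4.0.16 (R 4.3.3) fitted all 8 libraries by the quasi-likelihood test with TMM scaling and its filter on low counts, and p-values were adjusted over all 14205 genes by Benjamini-Hochberg. The study's methods state no model, so the replicate number entered as an alternative block. Deviations from group means correlated at 0.734 to 0.929 over the 9 same-numbered pairs, which a split of replicate 1 shared by the groups can give by itself. Differently numbered pairs were not compared. The differences between replicates 2 and 3 correlated at 0.175, -0.218 and -0.110, so the numbers 2 and 3 were not shown to pair. Pair by pair values of replicates 2 and 3 rest on the numbering alone. Blocked values are given wherever they change a call. The biological coefficient of variation was 0.412 without the block and 0.161 with it. FPKM were compared as log2(FPKM + 1), which understates changes of low genes, over genes with a mean above 1 FPKM. Alternatives were DESeq2 1.42.0, limma 3.58.1 on log2(FPKM + 1) or log2(FPKM + 0.1), no filter, other scaling, the repeated column kept or replaced by an estimate from FPKM, replicates 2 and 3 only, and leaving out each library. The statistical scripts were tested on simulated data.

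The members and lists were chosen with earlier results of these data known. Named genes are the members, REV1, 14 genes of the wider list (of which 1 is not reported here), up to 10 others of that list with the smallest p among those called without the block or, failing that, with it, and the 3 genes most like FTL, FTH1, TFRC and HMOX1.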

Additional observations from a re-analysis of the deposited data

Results flagged for a closer look

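The siRNAs differed from each other for PCBP2 and for 11 further iron genes in the direct comparison of SiREV1#1 with SiREV1#2, which is what drew attention to them. With the replicate block these were 1 of the 9 members and 11 of the 68 further genes, against 17.6% of all genes. Iron genes were thus not called more often than genes at large. The edgeR log2 difference with the replicate block was -0.67 for PCBP2. It was -1.29 for ABCB10, -0.60 for BACH1, -0.86 for CPOX, -1.35 for FDX1, -1.09 for FLVCR1 and -0.94 for SLC39A14, which were lower after SiREV1#1. It was 0.93 for BMP6, 1.05 for FDXR, 0.71 for GLRX5, 0.66 for STEAP2 and 0.58 for STEAP3, which were higher. In edgeR without the block FDX1 was the one called, at -1.35, while DESeq2 without the block called 4 genes of the wider list and PCBP2 in this comparison. BMP6 lay at or below 0.59 FPKM in replicates 2 and 3 of every group, and at 3.92 to 7.14 in replicate 1.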

How the results depend on the processing

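In edgeR without the block no member was called, and edgeR with the block gave 1, 0 and 1 in the comparisons in their order above (SiREV1#1 against Scramble, SiREV1#2 against Scramble, SiREV1#1 against SiREV1#2). DESeq2, limma on log2(FPKM + 1), limma on log2(FPKM + 0.1), the counts as deposited and SiREV1#2 replicate 3 estimated from FPKM (hereafter the estimated library) each gave 1, 0 and 1, limma with the replicate block 1, 0 and 4, the estimated library with the replicate block 2, 0 and 3, and replicates 2 and 3 alone 7, 6 and 8. The wider list, of which 68 genes were tested in the fits on 8 libraries, had 1, 0 and 1 calls in edgeR without the block. It had 9, 1 and 11 with the replicate block, 4, 0 and 4 by DESeq2 and 8, 1 and 20 by limma with the replicate block. The estimated library with the replicate block gave 10, 4 and 27, and replicates 2 and 3 gave 34, 36 and 47. Of all genes, edgeR called 0.296%, 0% and 0.676% without the block and 12.3%, 1.91% and 17.6% with it. In replicates 2 and 3 it called 50.2%, 49.3% and 63.7%. Shares for the other settings are not given here, so their counts cannot be set against genes at large. Between the siRNAs the wider list had 2 calls by limma with either pseudocount and 3 with the counts as deposited or the estimated library. Leaving out 1 library gave 0 members throughout, and 0 to 1 wider genes in the comparisons with SiREV1#1.

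The direction of some changes without a call depended on the setting, and the cause was not tested. IREB2 after SiREV1#1 turned from -0.04 to 0.08 with the replicate block and with the estimated library and block, to 0.01 by limma with and without the block, to 0.02 with the pseudocount of 0.1 and to 0.41 in replicates 2 and 3. TFRC after SiREV1#2 turned to -0.0017 with the counts as deposited and -0.01 with the estimated library. NCOA4 after SiREV1#2 turned to 0.09 with the replicate block, 0.04 by limma in all versions, 0.08 as deposited, and 0.06 with the estimated library, with and without the block, and in replicates 2 and 3. HMOX1 after SiREV1#2 turned to -0.41 with the replicate block, -0.63 by limma with and without it, -0.66 with the pseudocount of 0.1, -0.30 as deposited, -0.29 and -0.59 with the estimated library without and with the block, and -0.95 in replicates 2 and 3. FTL between the siRNAs turned from -0.04 to 0.23 with the replicate block, 0.22 by limma in all versions, 0.21 as deposited, 0.20 and 0.27 with the estimated library, and 0.38 in replicates 2 and 3.

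When each library was left out in turn, the ranges that crossed 0 were, after SiREV1#1, -0.04 to 0.92 for FTL, -0.03 to 0.36 for NCOA4, -0.16 to 0.10 for ACO1, -0.30 to 0.53 for IREB2, -0.48 to 1.12 for HMOX1, -0.96 to 2.24 for CP and -0.17 to 1.12 for STEAP2. After SiREV1#2 they were -0.43 to 1.07 for FTL, -0.73 to 0.37 for FTH1, -0.31 to 0.58 for TFRC, -0.43 to 0.28 for NCOA4, -0.0011 to 0.35 for ACO1 and -1.91 to 1.04 for HMOX1. Between the siRNAs they were -0.60 to 0.89 for FTL, -0.13 to 0.59 for NCOA4, -0.73 to 2.10 for HMOX1, -1.96 to 3.33 for BMP6, -2.05 to 0.18 for CPOX, -0.43 to 1.56 for GLRX5, -0.25 to 1.42 for STEAP2 and -0.18 to 1.07 for STEAP3. PCBP2 after SiREV1#1 kept its direction in every setting, from -0.82 to -0.70. With a library left out and no block it was not called. Calls made with the block were not rerun with libraries left out.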
